A study of Caenorhabditis elegans with 2 samples.

Results

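The MATH and BTB domain genes of the nematode Caenorhabditis elegans were described here by the small RNAs found with the Argonaute protein NRDE-3 in embryos. A gene was a member when its name was math, bath or btb followed by a number, and 104 of the 45510 genes in the tables met this rule. They were 47 math, 36 bath and 21 btb genes. The tables pair the identifiers with such a name for 1 member, so 89 names came from the Ensembl annotation and 15, all pseudogenes, from RefSeq at the same coordinates. Another 10 annotated names, of which 9 are pseudogenes, had no row and were not analysed here.

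There were 2 libraries, each the only one of its group, both from embryos of animals kept at 20 °C that carried 3xflag::gfp::nrde-3, from which the tagged protein was drawn with anti-FLAG beads. The labels do not state the promoter of that transgene. One, called wild-type here, was made from N2 worms fed OP50 bacteria. The other, called the RNAi library and listed by the study as a control, came from eri-1(mg366);dpy-13(e458) animals on bacteria expressing dpy-13 double-stranded RNA. Genotype and food therefore differ together, with 1 library each, so their parts cannot be told apart and no test between the conditions is possible. The study's question was what NRDE-3 binds in animals developing normally, and whether off-target genes are silenced through it.

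MATH domains are substrate-binding folds, and BTB domains bind the scaffold protein cullin CUL-3. A protein with both, here a bath gene product, can therefore act as the substrate adaptor of a CUL-3 ubiquitin ligase, the complex that marks proteins for destruction. In nematodes the family has expanded into many gene copies. NRDE-3 binds small RNAs that are antisense to transcripts and made by RNA-dependent RNA polymerases, and it carries them into the nucleus of somatic cells, where they direct silencing. ERI-1 is an exonuclease, and animals without it lack certain endogenous small RNAs and respond more strongly to added double-stranded RNA.

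Counted reads numbered 7693320 in the wild-type and 5537671 in the RNAi library. Levels are in RPM, read counts scaled to the same total of counted reads, sense and antisense together, so that 1 read is 0.130 RPM in the wild-type and 0.181 RPM in the RNAi library. Ratios divide the RNAi level by the wild-type level. Their 95% intervals are exact ones (Clopper-Pearson) for how the summed count splits between libraries, and a count of 0 is taken to allow up to 3 reads (0.390 and 0.542 RPM). These intervals and limits cover counting error only, since amplified reads are not independent molecules. A gene was measured with 10 or more antisense reads over both libraries. The size rule called a gene higher or lower where the larger level was 10 RPM or more, the fold was 4 or more, and the whole interval lay past 2-fold. The median ratio of the 5751 measured genes was 11.9-fold (3.58 on the log2 scale), so each ratio is also set against that median. The trigger gene dpy-13 had 1 and 115 antisense reads. As a check of the tissue, the embryonic microRNAs mir-35 to mir-42 had 2546 and 12571 sense reads, while the later larval microRNAs lin-4 had 0 and 0 and let-7 had 1 and 20.

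Small RNAs antisense to these genes were few in both libraries. Math and bath genes had like numbers in the wild-type library, and bath genes had most of them in the RNAi library. All 104 genes together had 411 antisense reads in the wild-type and 2078 in the RNAi library (53.4 and 375 RPM). On math genes lay 214 wild-type and 192 RNAi reads, for a ratio of 1.25 (1.02 to 1.52). On bath genes lay 183 and 1764 reads, for a ratio of 13.4 (11.5 to 15.7). On btb genes lay 14 and 122 reads, for a ratio of 12.1 (6.95 to 22.8). The ratio of summed reads was 0.651 over all genes listed as protein-coding and 0.497 over all genes, sums in which a few genes weigh heavily, so the sums of all 3 name groups lay above those of the whole. Against the 11.9-fold median over single genes, the math sum lay lower and the bath and btb sums close to it, but a sum and a median over genes are different measures. Scaled by trimmed mean of M-values (TMM), which shifts every log2 ratio by −3.20 and the all-gene median to 0.38, the bath and btb sums had ratios of 1.45 and 1.31 and the math sum turned to 0.135.

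Of the 104 genes, 31 were measured, another 42 had 1 to 9 reads and 31 had no antisense read in either library. The measured genes were 21 of the 36 bath genes (58.3%), 7 of the 47 math genes (14.9%) and 3 of the 21 btb genes (14.3%), against 24.5% of all genes listed as protein-coding in the tables. None of the 15 members named through RefSeq as pseudogenes was measured, and together they had 7 and 14 reads. Among measured genes the median log2 ratio was 3.84 for bath, −1.44 for math and 3.14 for btb, beside 3.58 for all genes, and under TMM the btb median turned to −0.066. With counts of 0 set to 3 reads these medians were 3.58, −1.46 and 3.28, beside 3.47. A measured gene that is high in only 1 library had to differ to be counted as measured, so these medians describe the measured genes and not the whole groups.

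By the size rule 7 of the 31 measured genes were higher in the RNAi library, 6 of them bath genes (28.6% of measured bath genes) and 1 a math gene (14.3%), where 18.6% of all measured genes were called. Under TMM 0 of the 31 were higher, where 1.7% of all measured genes were called. In RPM 20 of the 21 measured bath genes had ratios above 1, as did 5466 of the 5751 measured genes. Under TMM 17 of the 21 did, and the count over all genes is not given here. None of the 31 was lower, where 2.63% of all measured genes were called (2.87% under TMM, again with 0 of the 31), and no member of any group reached 10 RPM in the wild-type library. With a minimum of 1 RPM in place of 10 RPM, 23 of the 31 were higher, where 75.9% of all measured genes were called. That setting left 2 lower, math-20 and math-40, where 3.62% were called.

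**Figure D1:**
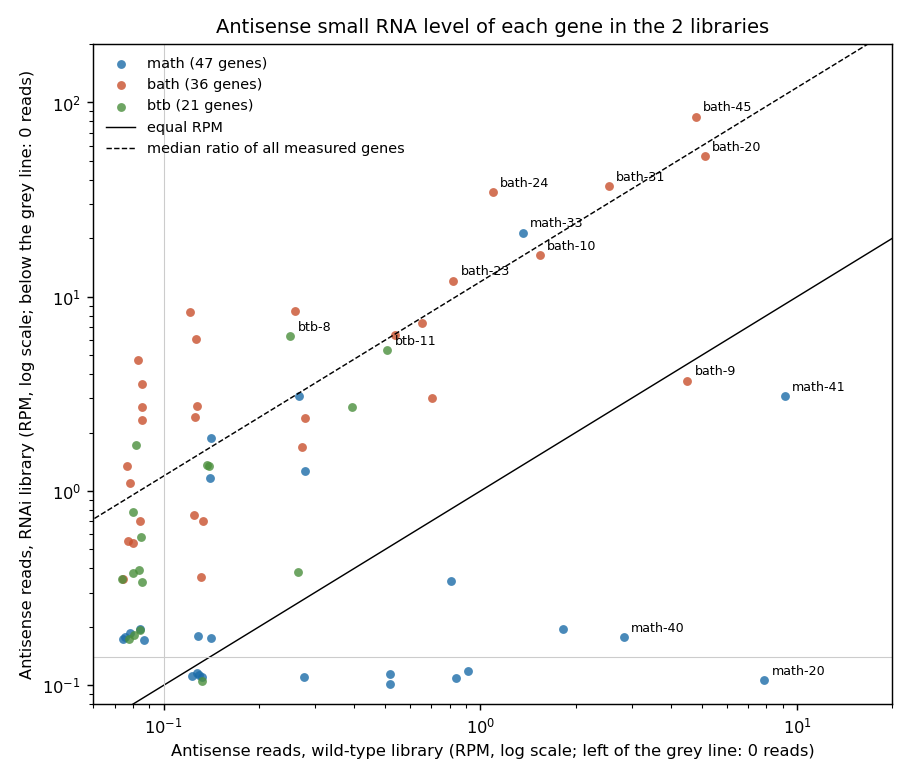
Antisense level of each gene with at least 1 antisense read, in RPM on log axes, wild-type library on x and RNAi library on y, coloured by name group, with points shifted slightly so that they can be told apart. Points beyond the grey lines had 0 reads in that library. The solid line marks equal RPM and the dashed line the 11.9-fold median of all measured genes. Most bath genes lie near the dashed line, and math-41, math-40 and math-20 lie below the solid line.

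The bath genes held most of the antisense reads in the RNAi library. Positions given here are those of the annotated genes on WBcel235, and reads were counted over their transcripts. bath-45 (chromosome II, 13123020 to 13125189) had 36 wild-type and 474 RNAi reads, which is 4.68 and 85.6 RPM. It was 18.3-fold higher (13.02 to 26.4). Leaving structural RNA (such as ribosomal, transfer and microRNA) aside, 72 genes had more antisense reads there. bath-45 had 0 sense reads in both libraries, so its antisense share was 100% (Wilson 95% interval 90.4 to 100 and 99.2 to 100). bath-24 (chromosome II, 2044619 to 2045605) likewise had 0 sense reads, beside 9 and 191 antisense reads, and was 29.5-fold higher (15.2 to 65.5). bath-45 and bath-24 were the only members whose interval lay wholly above the all-gene median, 2 of 31, where 6.21% of all measured genes did so.

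bath-20 (chromosome II, 2040276 to 2042547) lies 2071 bases from bath-24 on the same strand, with btb-3 between them. It had 40 and 313 reads (5.20 and 56.5 RPM). It was 10.9-fold higher (7.81 to 15.5). Unlike bath-24 it had many sense reads, 49 and 47, so that its antisense share was 44.9% (35.03 to 55.3) in the wild-type and 86.9% (83.1 to 90.0) in the RNAi library. The sense reads fell on isoform a, with 48 and 47, against 1 and 0 on isoform b. The antisense reads were spread over both isoforms, 19 and 171 on a and 21 and 142 on b. Reads on sequence shared by isoforms can go to either one, so only the sum per gene is used for ratios.

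bath-31 (chromosome II, 3731973 to 3733181) had 21 and 217 antisense reads, or 2.73 and 39.2 RPM. It was 14.4-fold higher (9.16 to 23.7) and had 1 sense read in each library. Per kilobase of exon the antisense level in the RNAi library was 46.9 RPM for bath-45, 41.5 for bath-24, 36.4 for bath-31 and 29.5 for bath-20. The next members on that scale were bath-23 at 16.5 RPM and bath-10 at 15.6 RPM per kilobase. All other members were at 8.64 RPM per kilobase, the level of bath-13, or below.

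bath-10, bath-9 and bath-23 stand side by side on chromosome II and differed in ratio. bath-23 (3371310 to 3372145) had 6 and 67 antisense reads and was 15.5-fold higher (6.77 to 43.8). RefSeq lists it, at slightly different coordinates, as a pseudogene. bath-10 (3375079 to 3376721) had 12 and 95 reads and was 11.0-fold higher (6.01 to 22.0). bath-9 (3377089 to 3378834), which begins 367 bases after bath-10 on the same strand, had 32 wild-type and 22 RNAi reads (4.16 and 3.97 RPM), a ratio of 0.955 (0.529 to 1.70). The interval of bath-9 lay below that of both neighbours and wholly below the all-gene median. Exons of bath-9 overlap Y49F6C.2 on the same strand, which had 2 and 1 antisense reads. bath-9 was the only measured bath gene below equal RPM, and in the wild-type library only bath-20 and bath-45 among bath genes had more reads.

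The other 14 measured bath genes had 0 to 5 antisense reads in the wild-type and 9 to 50 in the RNAi library. Their ratios against a count above 0 ran from 4.72 (1.67 to 16.4) for bath-15 to 66.7 (11.4 to 2688) for bath-44. bath-1, bath-19, bath-28 and bath-42 had 0 reads in the wild-type library and 20, 15, 12 and 27 in the RNAi library. With the 0 set to 3 reads bath-42 was 12.5-fold higher, and by the exact interval at least 9.49-fold. bath-40 (chromosome I, 14647782 to 14651288) had 4 and 34 antisense reads, an 11.8-fold ratio (4.21 to 45.8). It was among the 3 members with the most sense reads, 32 and 42. The genes of this paragraph other than bath-40 were chosen after their values were seen.

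The bath ratio did not hang on a single gene or on chromosome II. Without bath-45 the summed ratio was 12.2. The 26 bath genes on chromosome II had 165 and 1624 reads, a ratio of 13.7 (11.6 to 16.1), and the 10 on other chromosomes had 18 and 140 reads, a ratio of 10.8 (6.59 to 18.8). Antisense shares differed between these sets. They were 62.3% (56.3 to 67.9) and 91.9% (90.5 to 93.1) on chromosome II, but 23.1% (15.1 to 33.6) and 58.3% (52.0 to 64.4) on the other chromosomes.

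**Figure D2:**
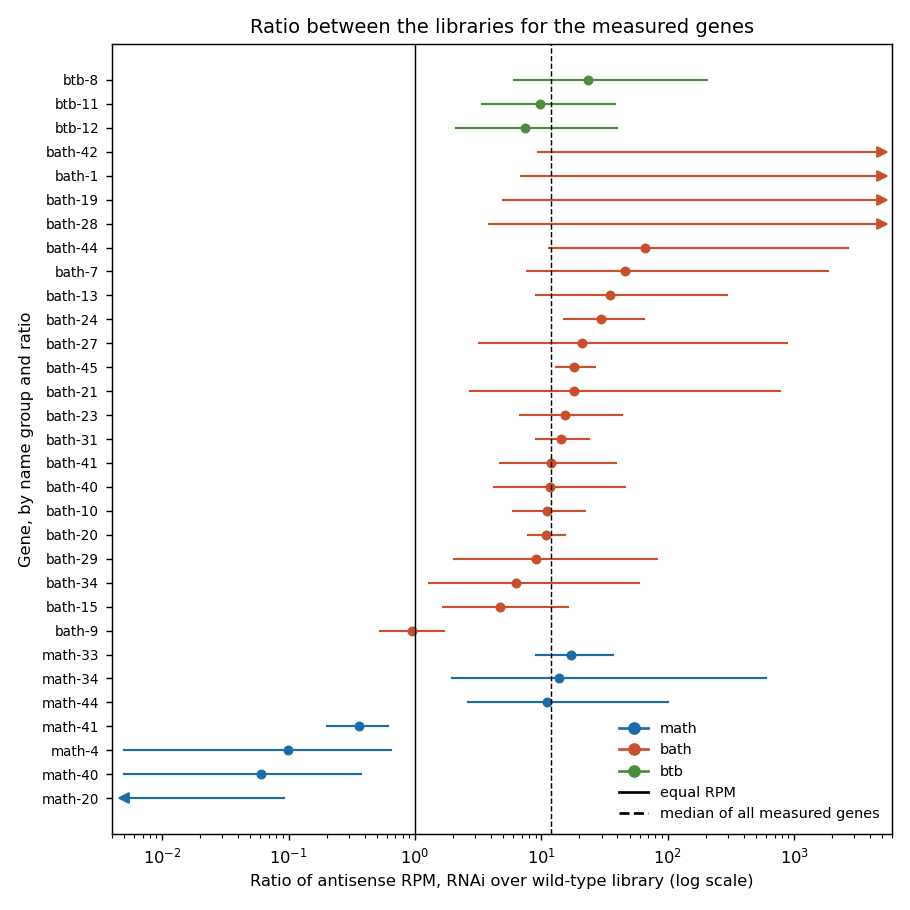
Ratio of antisense RPM, RNAi over wild-type library, on a log axis for the 31 measured genes, with the exact 95% interval as a bar and the name group by colour. Arrows mark genes with 0 reads in 1 library, and bars reaching the left edge are cut there. All measured bath genes but bath-9 lie to the right of the solid line of equal RPM, and math-41, math-4, math-40 and math-20 lie to its left. Of all 5751 measured genes, 5466 had ratios above 1. Under TMM all points would move left by the same 3.20 on the log2 scale.

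In the math genes the 3 members with the most wild-type reads had lower RPM in the RNAi library. They were picked by those wild-type counts, which favours a lower level in the other library. math-41 (chromosome II, 1824629 to 1830228) had 69 and 18 antisense reads, or 8.97 and 3.25 RPM, and was 2.76-fold lower (1.62 to 4.93), but scaled by antisense reads outside structural RNA its ratio was 0.815 (0.456 to 1.38), an interval that holds equal level. It was the member with the most wild-type reads, and 193 genes other than structural RNA had more. In the RNAi library math-41 was still among the 3 math genes with the most antisense reads. math-20 (chromosome II, 1996537 to 1998531) had 57 and 0 antisense reads, 13.7-fold lower with the 0 set to 3 reads. By the exact interval math-20 was at least 10.8-fold lower. Its sense reads were 0 and 4. math-40 (chromosome II, 1830632 to 1831803) had 23 and 1 reads, 16.6-fold lower (2.69 to 682). math-4, picked out once its values were known, had 14 and 1 reads and was 10.1-fold lower (1.53 to 426), with a ratio of 0.223 (0.00528 to 1.47) under that scaling.

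These 4 of the 7 measured math genes had intervals wholly below equal RPM, where 4.19% of all measured genes did. math-20, math-40 and math-4, with 0 or 1 RNAi reads, were measured only through their wild-type reads. Their low ratios thus partly follow from the minimum of 10 reads. The same 4 genes and bath-9 had intervals wholly below the all-gene median, 5 of the 31 members, where 12.1% of all measured genes did. By contrast 26 of the 31 had intervals wholly above equal RPM, where 91.8% of all measured genes did. Per kilobase of exon the wild-type antisense level was 5.33 RPM for math-20, 3.85 for math-41 and 3.02 for math-40. The highest bath values on that scale were 3.72 RPM per kilobase for bath-9 and 2.71 for bath-20.

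Reads of the wild-type library lay on neighbouring math genes. math-41, math-40 and math-39 follow each other on the plus strand with 403 and 534 bases between them, and had 69, 23 and 6 wild-type reads against 18, 1 and 0. The F-box genes fbxa-3 and fbxc-19, which come just before math-41, had 50 and 2 reads and 1 and 3 reads, so such counts were not limited to math genes. A second run held math-44, math-21 and math-20. math-21 had 7 and 0 reads, as math-20 had 57 and 0, but math-44 (1989310 to 1990535), 3502 bases before math-21, had 2 and 16, a ratio of 11.1 (2.61 to 99.6). math-39 and math-21 were likewise picked once their values were known. Genes of a run that are alike in sequence could share reads, and this was not tested.

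math-33 (chromosome V, 11113907 to 11118824) is 1 of the 3 math genes outside chromosome II. It encodes a deubiquitinating enzyme related to mammalian USP7 rather than an adaptor, and it is the longest member, with 4225 bases of exon. It had 10 and 124 antisense reads, or 1.30 and 22.4 RPM, and was 17.2-fold higher (9.06 to 36.8). Sense reads outnumbered them, at 82 and 316, so that its antisense share was 10.9% (6.01 to 18.9) and 28.2% (24.2 to 32.6). Exons of math-33 overlap scb-1 on the opposite strand, which had 3 and 9 sense reads and 0 and 9 antisense reads. The part of these reads in the math-33 ratio was not tested. Its antisense reads were spread over 16 isoforms, with at most 13 on 1 isoform in the RNAi library.

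math-33 alone set the direction of the math sum. It held 64.6% of the group's antisense reads in the RNAi library. Without it the other 46 math genes had 204 and 68 reads, a ratio of 0.463 (0.347 to 0.612), or 2.16-fold lower (1.63 to 2.89), though scaled by antisense reads outside structural RNA this ratio was 1.04. Over all 47 math genes 21 had at least 1 antisense read in the wild-type and 16 in the RNAi library, while for the 36 bath genes these counts were 20 and 30. Over all genes listed as protein-coding they were 6362 and 10508 of 20524, higher in the RNAi library as for bath. The RNAi count was the larger in 29 bath genes (80.6%) and 10 math genes (21.3%), and the smaller in 1 bath gene and 14 math genes (29.8%). Over all genes listed as protein-coding it was the larger in 48.3% and the smaller in 4.26%.

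The btb genes had the fewest antisense reads in sum, over 21 genes. Their measured genes had a median of 5.06 RPM in the RNAi library, against 5.96 RPM for bath and 1.81 RPM for math. No btb gene would have been measured by wild-type reads alone, so this btb level partly follows from the minimum of 10 reads. btb-8 (chromosome II, 1722770 to 1724186) had 2 and 34 antisense reads, which gave 23.6 (6.05 to 203). btb-11 (chromosome II, 1023693 to 1024784) had 4 and 28 reads, a ratio of 9.72 (3.40 to 38.2). Sense reads on btb-11 numbered 7 and 27. btb-12 (chromosome II, 1655217 to 1656229) had 3 and 16 reads, a ratio of 7.41 (2.12 to 39.7), while its sense reads went the other way, from 11 to 1. All 3 intervals held the all-gene median, and under TMM the log2 ratios of btb-11 and btb-12 were below 0. btb-19 shared with btb-8 the third highest wild-type count of the group, with 2 reads in each library. Of all 21 btb genes 15 had more reads in the RNAi library, 1 had fewer and 5 had equal counts.

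Most members lie on chromosome II, 44 of the math, 26 of the bath and 18 of the btb genes. Joined where at most 50000 bases separate neighbours, a measure chosen after the data were seen, they form a block of 53 members between 1706709 and 2046656. The block holds 37 math, 10 bath and 6 btb genes, and 249 antisense reads in the wild-type against 703 in the RNAi library, for a 3.92-fold ratio (3.39 to 4.55). The 57 other genes listed as protein-coding inside it had 274 and 1591 reads, a ratio of 8.07 (7.09 to 9.20), of which the F-box gene fbxb-97 held 77 and 1017. A second block of 10 members between 3295405 and 3378834, with 7 bath and 3 btb genes, had 54 and 233 reads, for a 5.99-fold ratio (4.44 to 8.22). The 17 other genes there had 526 and 88 reads, 438 of the 526 on Y46D2A.1. Without the 1 other gene of most reads, fbxb-97 in the larger block and Y46D2A.1 in the second, the other genes had ratios of 4.05 (3.44 to 4.78) and 1.36 (0.997 to 1.85). In the larger block the other genes thus came near the members' pooled ratio once fbxb-97 was left out. That pooled ratio mixes members of unlike direction, such as bath-24 with 9 and 191 reads and math-41 with 69 and 18. A split of the block by name group is not given here, so likeness to any 1 group is not shown. No member was left out in turn, and bath-20, with 40 and 313 reads, stayed among them. The 2 sides were therefore not treated alike, and what the gap rests on was not tested. In a block of 3 members between 1023693 and 1060802 the ratio was 10.7 (4.54 to 30.5) for members and 10.3 (6.30 to 18.0) for the 7 other genes. Of the 2 remaining blocks, the one between 1577378 and 1656229 had ratios of 9.72 (2.90 to 50.9) for 8 members and 2.60 (1.67 to 4.13) for other genes. The one between 2099926 and 2155220 had 8 and 3 reads on its 4 members, a ratio of 0.521 (0.0890 to 2.17). Its 13 other genes had 13994 and 82 reads, of which cel-mir-8199 held 13986 and 6. That gene bears a microRNA name though it is listed as protein-coding. Without cel-mir-8199 the other 12 had 8 and 76 reads, a ratio of 13.2 (6.37 to 31.7).

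**Figure D3:**
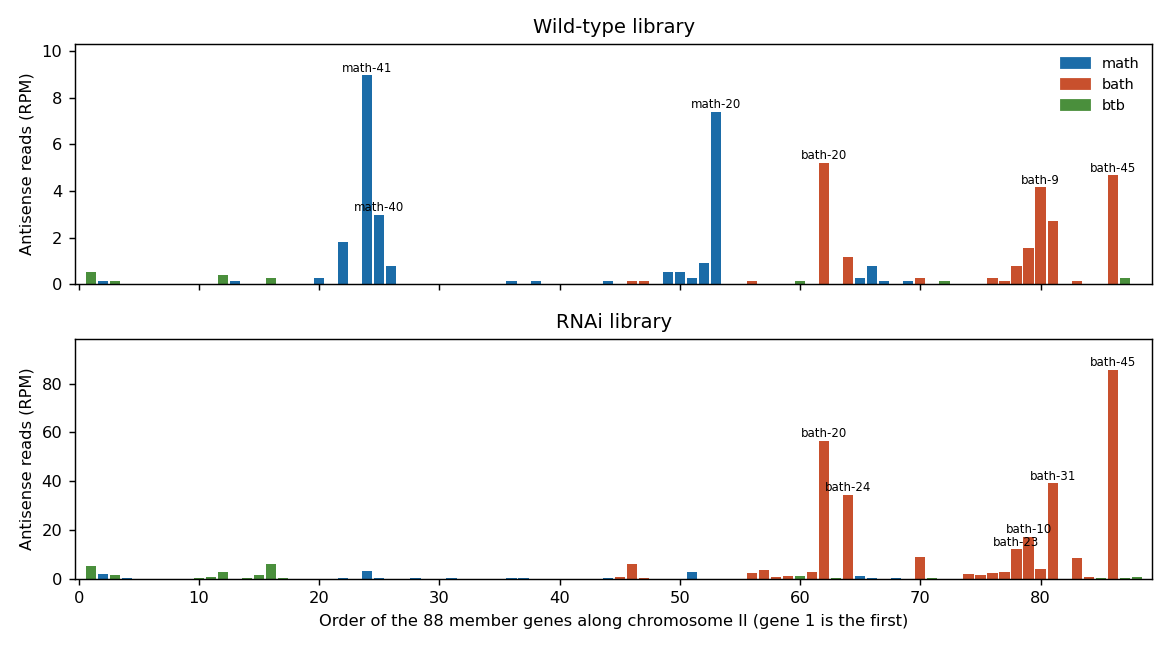
Antisense level in RPM of the 88 members on chromosome II, in their order along the chromosome, as bars coloured by name group, for the wild-type library (top) and the RNAi library (bottom, with another scale). The tallest wild-type bars are math-41 and math-20, and the tallest RNAi bars are bath-45, bath-20, bath-31 and bath-24.

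Sense reads gave another picture of the groups. The math genes had 121 and 415 sense reads, a ratio of 4.76 (3.88 to 5.88), of which math-33 held 82 and 316. The bath genes had 160 and 243, a ratio of 2.11 (1.72 to 2.59), and the btb genes 45 and 84, a ratio of 2.59 (1.78 to 3.81). The same ratio over all genes listed as protein-coding was 2.42. The antisense share of the reads on bath genes was 53.4% (48.1 to 58.6) in the wild-type and 87.9% (86.4 to 89.2) in the RNAi library. On math genes it was 63.9% (58.6 to 68.8) and 31.6% (28.1 to 35.4), and on btb genes 23.7% (14.7 to 35.97) and 59.2% (52.4 to 65.7). Over all genes listed as protein-coding it was 76.6% and 46.9%. In that sum 3 genes held 25.7% of the wild-type antisense reads, and unc-119 alone held 25.4% of the RNAi ones. The share was higher in the RNAi library in some other lists, at 13.03% and 44.9% on a list of CUL-3 partners and 14.7% and 71.8% on the skr genes. It was lower there in the sums of F-box genes, at 99.2% and 87.2% for fbxb and 94.8% and 81.7% for fbxa and fbxc. fbxb-37 alone held 98.9% of the fbxb wild-type antisense reads. The fbxb share without it is not given here, so the drop may not hold for the other fbxb genes. Over genes listed as protein-coding on chromosome II it was also lower, at 88.2% and 45.9%.

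**Figure D4:**
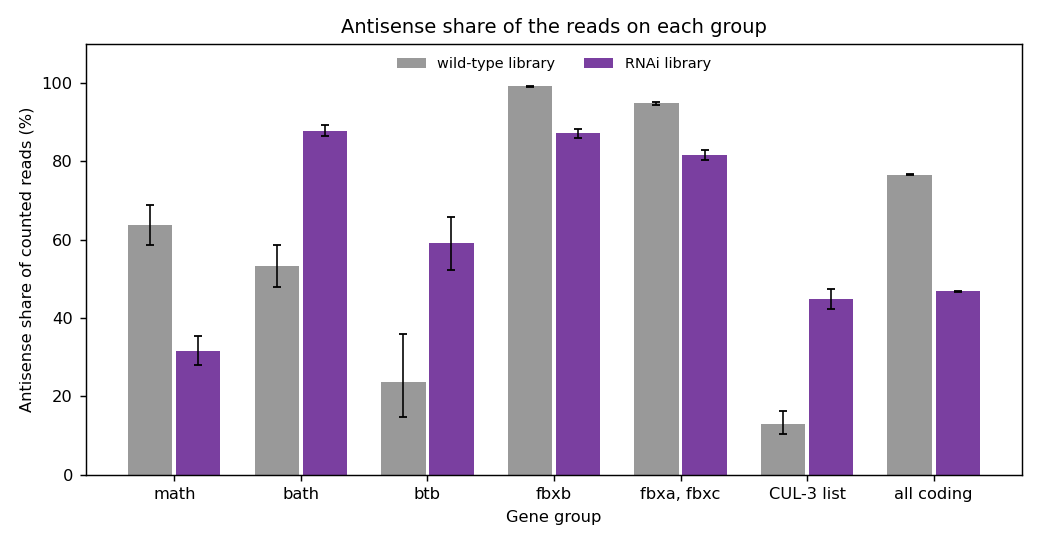
Antisense reads as a percentage of all counted reads on each gene group, in the wild-type (grey) and the RNAi library (purple), with Wilson 95% intervals as error bars. The bath share was 53.4% and 87.9% and the math share 63.9% and 31.6%, beside 76.6% and 46.9% over all genes listed as protein-coding.

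The partners of BTB proteins were described from a list of 26 genes, all of them matched. It holds the cullin CUL-3, the ubiquitin-like NED-8 that activates cullins, the enzymes and signalosome subunits that attach or remove it, and other BTB proteins. It also holds rbx-1, cand-1, mei-1, mei-2 and ppfr-1. Of 21 measured genes 3 were higher by the size rule and 0 were lower, beside the 18.6% and 2.63% of all measured genes, and the median log2 ratio was 3.58, the same as over all genes. kel-1, a BTB and kelch repeat gene, had 16 and 135 antisense reads, 11.7-fold higher (6.96 to 21.1). cand-1, whose product exchanges the adaptors of cullins, had 7 and 96 reads, 19.1-fold higher (8.90 to 48.7). ned-8 had 3 and 56, 25.9-fold higher (8.43 to 130). mel-26, the BTB and MATH adaptor that directs the meiotic katanin MEI-1 to CUL-3, had 9 and 45 reads, a ratio of 6.95 (3.35 to 16.2).

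F-box genes, the substrate adaptors of another class of cullin ligases, also lie among the members, 14 of them within the larger block. The 109 fbxb genes had 40883 and 3109 antisense reads, 98.9% of the wild-type reads on fbxb-37. Of 56 measured fbxb genes 9 were higher and 1 lower, beside 18.6% and 2.63% of all measured genes. Their median log2 ratio was 2.83. The 242 fbxa and fbxc genes had 13829 and 2854 reads. Of 80 measured ones 10 were higher and 20 lower, beside the same 18.6% and 2.63%, with a median of 1.48. The math genes, with a median of −1.44 over 7 measured genes, and the bath genes, with 3.84 over 21, lay on either side of both. These differences were not tested.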

How the data were processed

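Small RNAs eluted with FLAG-tagged NRDE-3 from embryo lysates, 20 to 30 nt long, were cloned after phosphatase and kinase treatment, per the labels' protocols. The authors deposited raw read counts per transcript, sense and antisense. Per the series' design text, Bowtie2 with default settings placed the reads on transcripts of release WS243, and the sources used here do not give its version. At these settings a read matching several places equally well is reported once, so counts of near-identical genes and isoforms are uncertain. The header had 5 names over lines of 6 fields, and columns were taken by position. Incomplete lines, 2 and 3, with 2 and 9 reads, were left out.

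Isoform counts were added up per gene. Names, coordinates and exon lengths came from Ensembl 115 (WBcel235), and positions are those of the annotated genes. Log2 ratios had 0.5 added to each count. Named members were those meeting the size rule, the 3 highest per name group and library in antisense reads, and the 3 highest in sense reads. From the list of partner genes, those meeting the rule or among its 3 highest were named. Members, lists and rules were chosen with earlier results of these data known. The code was tested on simulated data. Python 3.11.15, SciPy 1.17.1 and edgeR 4.0.16 (TMM) were used. Alternatives covered scaling, minimums, added counts, isoforms and membership. Planned descriptions of sequence sharing were not run.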

Additional observations from a re-analysis of the deposited data

How the results depend on the processing

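No paired analysis was possible because each group held 1 library. In the scalings here only ratios were rescaled and the level minimum stayed in RPM. TMM and median-of-ratios factors each gave 0 higher genes in place of 7, while over all measured genes 98 and 97 of 5751 were higher in place of 1069, and a minimum of 1 RPM gave 23 higher and 2 lower. The count of higher genes was 6 or 7 under the 5 other alternatives run for it, and that of lower genes was 0 under the 7 other alternatives. Several of these counts could not have changed. No member reached 10 RPM in the wild-type library, so only TMM and median-of-ratios factors among the 7 could have given a lower call. A minimum of 1 read could not alter the higher count, since 10 RPM is at least 55.4 reads. Nor could Ensembl names alone, since no member named through RefSeq was measured.

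The math sum had a ratio of 1.25. It was 0.135 under TMM and 0.135 under median-of-ratios factors, 0.515 with only the isoform of most reads, 0.463 without math-33, and 0.461 without members whose exons overlap another gene, an alternative chosen after the data were seen. It was 2.80 when scaled by antisense reads outside structural RNA. The bath sum of 13.4 was 1.45 under TMM, 1.45 under median-of-ratios factors, 30.1 under antisense scaling and 16.04 without overlapping members. The btb sum of 12.1 was 1.31, 1.31 and 27.2 under the 3 scalings in the same order. The bath median log2 ratio of 3.84 was 0.64, 0.64 and 5.01, and 2.80 with 5 added to each count. The btb median of 3.14 was −0.066, −0.067 and 4.31, and 2.35 with 5 added. For all genes the median was 0.38, 0.37 and 4.75 under these scalings and 2.32 with 5 added, so the scalings moved every ratio by 1 factor. For isoforms and overlaps the math sum turned because math-33, which has 16 isoforms and an overlap, then lost weight. Of the named members, those called by the size rule kept their direction under the 5 alternatives run for them. btb-11, btb-12, btb-19 and math-44, not called, had log2 ratios below 0 under TMM and median-of-ratios factors, and bath-9 had one above 0 under antisense scaling (1.11) and with 5 added (0.020). The math sum without math-33 was 1.04 under antisense scaling. Depth limits these values: 1 read is 0.130 or 0.181 RPM, and 42 of the 104 genes had 1 to 9 reads.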

Other observations

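The skr genes encode the adaptors that join F-box proteins to their cullin. Of the 20 skr genes 6 were measured. By the size rule 1 was higher and none was lower, beside 18.6% and 2.63% of all measured genes. Summed over the 20 genes, antisense reads numbered 36 and 870, a ratio of 33.6 (24.1 to 48.3), and the median log2 ratio of the measured ones was 5.12 (2.64 with counts of 0 set to 3 reads). skr-21, named after its values were seen, held 31 of the 36 and 746 of the 870 reads.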
